A study of Rattus norvegicus with 30 samples.

Results

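De novo lipogenesis is the route by which liver cells build fatty acids from citrate. It was followed here through 10 genes chosen by name: Acly, Me1, Acaca, Acacb, Fasn, Elovl6, Scd, Fads1, Fads2 and Srebf1. The array carried 15 probesets for these 10 genes, of 31042 probesets and 14217 named genes in all. The filter on low signals, set at the 30th percentile of mean log2 signal, kept 14 of the 15 probesets and 9 of the 10 genes, and the gene that did not pass was Acacb. The genes were picked by name and by no threshold on a measured value, with earlier results of these data known.

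Frozen primary hepatocytes of male Sprague Dawley rats were thawed, kept under a Matrigel overlay and dosed on the third day of culture with sodium valproate dissolved in water. The 6 groups were water, 0.5 mM valproate and 10 mM valproate, each harvested after 24 h and after 48 h, with 5 wells per group and 1 expression array per well. The labels name no genetic change in any group. The wells were described as separate cultures, and how many rats they came from is not stated in the labels, so the p-values measure the spread between wells.

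The cells were checked against hepatocyte markers: all 9 found on the array passed the filter, and albumin (Alb) read 53284 to 90995. All signals are the authors' scaled MAS5 intensities, given below in their arbitrary units. The trimmed mean signal was 1500.5 to 1500.7 on the 30 arrays, and wells of 1 group correlated at 0.944 or above in log2 signal. On 3 arrays the 3' to 5' signal ratio of beta-actin, a sign of RNA quality, was above 2 on the log2 scale. They were water 24 h culture 3 and 0.5 mM 48 h cultures 3 and 4, and results at 0.5 mM whose call changed without them are given both ways. Precision is limited by the 5 arrays per group.

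In hepatocytes, citrate exported from mitochondria is split by ATP citrate lyase into acetyl-CoA, which acetyl-CoA carboxylase turns into malonyl-CoA and fatty acid synthase joins into palmitate, with NADPH supplied in part by malic enzyme. Elongases then lengthen the chain, stearoyl-CoA desaturase puts in the first double bond, and the delta-5 and delta-6 desaturases act on polyunsaturated chains. Srebf1 encodes the membrane-bound transcription factor SREBP-1, which is cleaved under low sterol or insulin signalling and is known to activate most of these genes in liver, together with LXR alpha (Nr1h3) and ChREBP (Mlxipl). Valproate, an antiepileptic drug with a branched carbon chain, is known as a histone deacetylase inhibitor and for fat accumulation in the liver.

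Because most of these enzymes fell together at 10 mM, the promoters at hand were searched for the motifs of their known regulators. Those shown are of Srebf1, the regulator, which has 2 start sites in the table, and of Acly, the first enzyme of the route. The sequences are from RefSeq, build GRCr8, 250 bases before to 50 bases after a start, 5′ to 3′ on the gene's own strand, and capitals mark CCAAT, the box bound by NF-Y, or its reverse complement ATTGG. The Acly promoter lies at chr10:85963582-85963881, minus strand, the upstream Srebf1 start at chr10:45529115-45529414, minus strand, and the downstream Srebf1 start at chr10:45518961-45519260, minus strand.
Acly: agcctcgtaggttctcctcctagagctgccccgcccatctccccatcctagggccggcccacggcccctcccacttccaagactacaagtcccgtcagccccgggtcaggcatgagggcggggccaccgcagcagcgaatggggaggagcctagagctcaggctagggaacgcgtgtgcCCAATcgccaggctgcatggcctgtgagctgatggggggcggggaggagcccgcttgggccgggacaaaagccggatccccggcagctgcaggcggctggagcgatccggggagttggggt
Srebf1, upstream start: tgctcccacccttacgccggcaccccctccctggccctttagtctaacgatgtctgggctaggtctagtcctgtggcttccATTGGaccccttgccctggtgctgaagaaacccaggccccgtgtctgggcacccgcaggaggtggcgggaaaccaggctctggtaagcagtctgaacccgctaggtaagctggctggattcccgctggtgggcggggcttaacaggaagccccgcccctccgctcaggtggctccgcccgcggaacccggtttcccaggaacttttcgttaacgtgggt
Srebf1, downstream start: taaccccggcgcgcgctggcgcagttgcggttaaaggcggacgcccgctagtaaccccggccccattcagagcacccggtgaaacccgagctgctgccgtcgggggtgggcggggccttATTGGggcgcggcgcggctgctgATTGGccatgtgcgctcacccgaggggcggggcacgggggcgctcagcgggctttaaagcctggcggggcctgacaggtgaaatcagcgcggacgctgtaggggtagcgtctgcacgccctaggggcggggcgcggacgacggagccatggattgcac

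A match was found in each of the 3 windows, with the first base of the box 71 bases before the Acly start, 169 bases before the upstream Srebf1 start, and 131 and 108 bases before the downstream one. Entries existed for 7 of the 10 genes, in 8 windows, and not for Fasn, Acaca or Elovl6. CCAAT, read on both strands, was in 5 of the 8 windows (also in Acacb and Fads1) and in 37.5% of all 33469 promoters of the table. The sterol regulatory core TCACNCCAC was in 1.12% of all promoters, the E-box CACGTG in 6.42%, and the perfect LXR DR4 repeat, 2 copies of AGGTCA with 4 bases between them, in 0.00598%. None of these 3 was in any of the 8 windows, which says only that these letters are not within them. The windows of Scd, Fads2 and Me1 held no match to any of the motifs. The probesets were not matched to either Srebf1 start.

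At 10 mM valproate the front of the route fell most, by the brightest probeset of each gene. Fasn, Acaca and Acly were between 3.14-fold and 4.88-fold lower than in water at 24 h, and between 2.71-fold and 4.83-fold lower at 48 h. By the mean of its probesets, Acaca had a log2 change of -1.19 at 48 h, about that of Scd (-1.21). Me1 and Srebf1 were lower at both times, Scd fell more at 48 h than at 24 h, and Fads1 and Fads2 were lower at 48 h. Of the 9 genes tested, 7 fell and 0 rose at 24 h, where 25.0% of all genes fell and 31.1% rose, and 9 fell and 0 rose at 48 h, where 22.3% fell and 27.6% rose (limma, adjusted p under 0.05 over all 21729 probesets tested). At an unadjusted p under 0.05, 0 rose at 24 h and 0 at 48 h. The genes' median log2 change was -0.89 at 24 h and -1.11 at 48 h, against 0.07 and 0.03 over all 11604 genes tested. At each time the 10 mM and the 0.5 mM comparisons share the same water cultures. In these bulk samples, fewer cells of a type and less RNA per cell cannot be told apart.

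Acly, ATP citrate lyase, makes the cytosolic acetyl-CoA for the route. At 24 h its signal was 12672, 14292, 12756, 13644 and 12326 in the 10 mM cultures, against 38385, 45622, 38153, 39227 and 45654 in water. At 48 h it was 8868.5, 14852, 7977, 8242 and 9299.5 in the 10 mM cultures, against 37086, 36922, 32889.6, 38166 and 38501 in water. The groups did not overlap at either time, and 1 culture of the 48 h 10 mM group, the second, stood well above its other 4. The log2 change was -1.65 ± 0.11 (SE) at 24 h, with an adjusted p of 4.73e-14, and -1.93 ± 0.11 at 48 h, with an adjusted p of 3.65e-15.

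Acaca, the cytosolic acetyl-CoA carboxylase, commits carbon to fatty acids. Its brightest probeset read 4244, 4632, 4432, 4893 and 5065 in the 10 mM cultures at 24 h, against 17743, 18892, 18776, 20684 and 20001 in water. At 48 h the 10 mM cultures read 4859.5, 6056, 3994, 4231 and 5341, against 14156, 13552, 11563, 13107 and 13538 in water. All 10 mM cultures were below all water cultures of the same time. The fall was 4.12-fold at 24 h (log2 change -2.04 ± 0.087, adjusted p = 2.49e-18) and 2.71-fold at 48 h (log2 change -1.44 ± 0.087, adjusted p = 1.35e-14).

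Acacb, the mitochondrial carboxylase whose malonyl-CoA restrains fatty acid oxidation, was near the bottom of the array's range and was not tested. Its signal was 16.6 to 157 in the 10 mM cultures at 24 h, against 8 to 202 in water, and 30.2 to 122 in the 10 mM cultures at 48 h, against 43 to 289.6 in water. The 0.5 mM cultures read 32.6 to 187 at 24 h and 15.8 to 354 at 48 h. The groups overlapped throughout, and no direction can be read from them.

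Fasn, fatty acid synthase, showed the largest fall of the 9 genes at both times by its brightest probeset. That probeset read 2882, 2539, 2433, 2594 and 2633 in the 10 mM cultures at 24 h, against 10776, 15185, 12458, 12562 and 13432 in water. After 48 h that probeset read 2107, 3545, 2032, 1813 and 2469.7 in the 10 mM cultures, against 9853, 11747, 11329, 11758 and 11911 in water. The groups were far apart at both times, and culture 2 was again the highest of the 48 h 10 mM group. The standard error of the log2 change was 0.12 at both times, and the adjusted p was 3.95e-16 at 24 h and 1.5e-15 at 48 h. Falls of at least 2 on the log2 scale were called for 1.08% of all genes at 24 h, among them Fasn and Acaca, and for 0.543% at 48 h, among them Fasn.

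**Figure D1:**
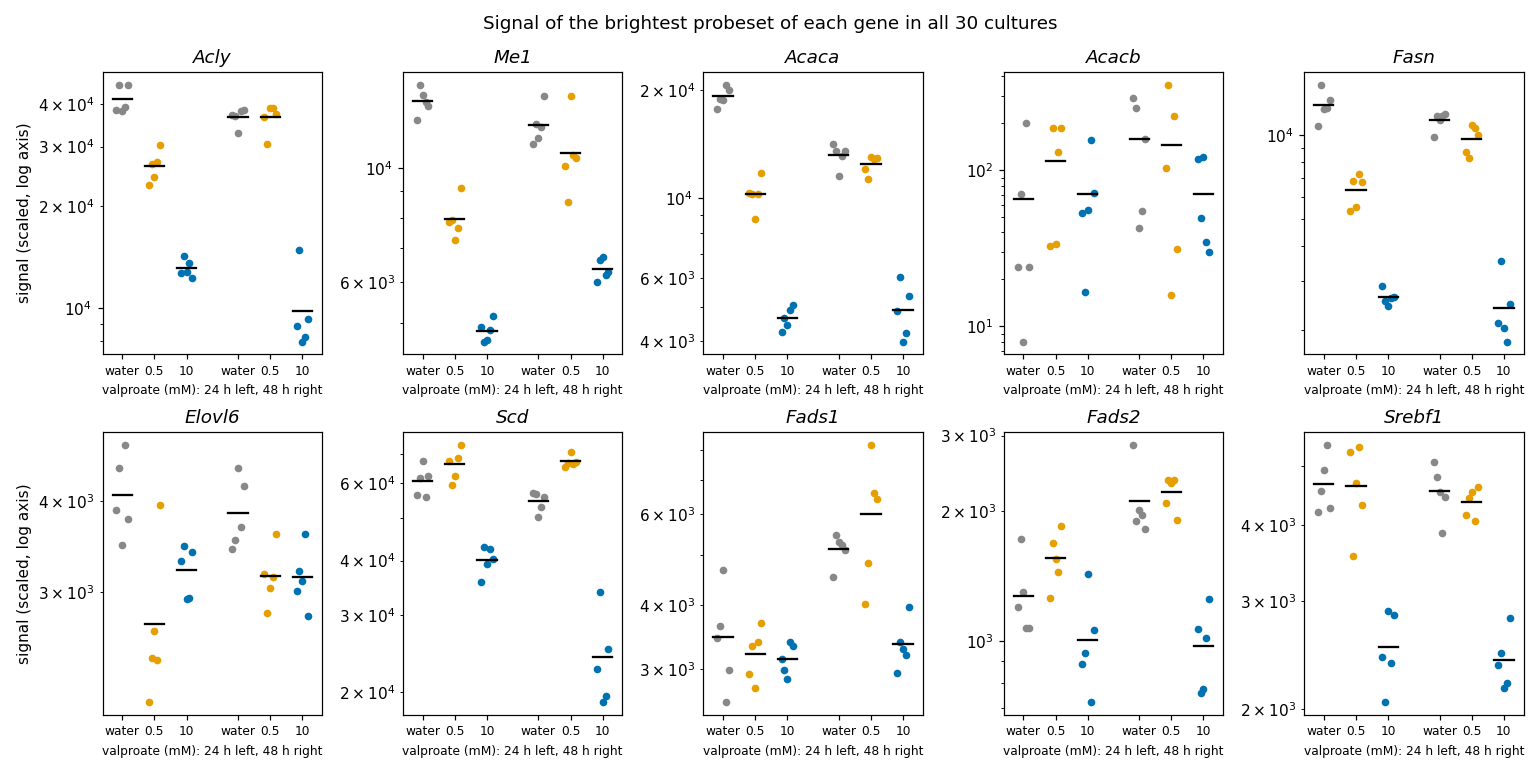
Signal of the brightest probeset of each of the 10 genes (log axis, scaled intensity) in each of the 30 cultures, by valproate dose within 24 h (left) and 48 h (right); points are cultures and lines are group means. The 10 mM cultures of Acly, Me1, Acaca, Fasn, Scd and Srebf1 lie below the water cultures at both times, and the 6 groups of Acacb overlap.

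Me1, cytosolic malic enzyme, supplies NADPH. By its brightest probeset it read 4903, 4598, 4639, 4838 and 5145 in the 10 mM cultures at 24 h, against 12373, 14507, 13861, 13419 and 13193 in water. At 48 h the 10 mM cultures read 6013, 6624, 6699, 6202 and 6272, against 11109, 12196, 11442, 11995 and 13779 in water. The groups did not overlap. In log2 terms the change was -1.48 ± 0.083 at 24 h (adjusted p = 9.52e-16) and -0.92 ± 0.083 at 48 h (adjusted p = 7.1e-11).

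Elovl6, which lengthens palmitate to stearate, moved little at 10 mM. It read 3316.5, 3469.6, 2934, 2942 and 3408 in the 10 mM cultures at 24 h, against 3885, 4443.5, 3481, 4775 and 3778 in water, and the 2 groups did not overlap by a narrow margin. The 48 h signal was 3014.5, 3204, 3113, 3602 and 2788 in the 10 mM cultures, against 3435, 3537, 4436, 3681 and 4193 in water, and the groups overlapped. Elovl6 changed on the log2 scale by -0.33 ± 0.12 at 24 h (adjusted p = 0.0175) and -0.29 ± 0.12 at 48 h (adjusted p = 0.0442). Both calls sit close to the threshold. The 24 h call was lost without water culture 4 (adjusted p = 0.0632). The 48 h call was lost on leaving out any 1 of water cultures 3, 4 and 5 or 10 mM cultures 1, 2, 3 and 5, with log2 changes of -0.31 to -0.24 over these 7 and adjusted p of 0.0529 to 0.126.

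Scd, stearoyl-CoA desaturase, makes oleate and palmitoleate. It read 35666, 42922, 39279, 42487 and 40260.2 in the 10 mM cultures at 24 h, against 56348, 61686, 67554, 55899.7 and 62336 in water. After 48 h the signal was 22625, 33846, 19009, 19605 and 25163 in the 10 mM cultures, against 56953, 56667, 50289.7, 53141 and 55844 in water. The groups were apart at both times, with a wider gap at 48 h, and culture 2 was once more the highest of the 48 h 10 mM group. The measured log2 change of Scd was -0.60 ± 0.095 at 24 h (adjusted p = 3.37e-06) and -1.21 ± 0.095 at 48 h (adjusted p = 4.44e-12).

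Fads2, the delta-6 desaturase that opens the polyunsaturated route, read 883, 939, 1427, 721.5 and 1060.4 in the 10 mM cultures at 24 h, against 1201, 1719.9, 1301, 1069.5 and 1070.1 in water, and these groups overlapped. By 48 h it read 1065, 757, 774, 1016 and 1252 in the 10 mM cultures, against 2852, 1895, 2013, 1965 and 1816 in water, with no overlap. For Fads2 the log2 change was -0.35 ± 0.16 at 24 h (adjusted p = 0.0733) and -1.11 ± 0.16 at 48 h (adjusted p = 8.65e-07). The 24 h value passed the threshold without 10 mM culture 3, at -0.48 with an adjusted p of 0.0117.

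Fads1, the delta-5 desaturase that follows it, was called lower at 48 h and not at 24 h. It read 3142, 2986, 2876, 3385 and 3323 in the 10 mM cultures at 24 h, against 3443, 3646, 4676, 2593 and 2989 in water, and these values lay over each other. At 48 h the 10 mM cultures read 2949.5, 3391, 3288, 3192 and 3970.4, against 4539.8, 5480.2, 5296.5, 5225 and 5109 in water, and all 5 were lower than any water culture. Fads1 had a log2 change of -0.12 ± 0.14 at 24 h (adjusted p = 0.527) and -0.61 ± 0.14 at 48 h (adjusted p = 0.00052).

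Srebf1, the regulator of the route, had smaller measured falls than Acly, Acaca and Fasn by the brightest probeset of each. Its fall was nearly the same at both times. It read 2435, 2053, 2892, 2378 and 2853 in the 10 mM cultures at 24 h, against 4207, 4549, 4926.5, 5416 and 4273.5 in water. The 48 h values were 2358, 2470.5, 2159.7, 2206 and 2815 in the 10 mM cultures, against 5069.6, 4793, 4537, 3886 and 4443 in water. The groups did not overlap. Its log2 change was -0.89 ± 0.10 at 24 h (adjusted p = 1.2e-08) and -0.92 ± 0.10 at 48 h (adjusted p = 1.05e-08). The second Acaca probeset, at -0.81 and -0.94, fell by about as much as Srebf1. An array measures the transcript only, and neither cleavage of the SREBP-1 protein nor enzyme activity or lipid was measured.

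In all, 7 of the 9 tested genes at 24 h and 8 at 48 h had every 10 mM culture below every water culture, where 20.3% and 18.4% of all genes did. Fads1 and Fads2 overlapped at 24 h, and Elovl6 at 48 h.

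At 0.5 mM the calls differed between the times, by the brightest probeset of each gene. At 24 h Fasn, Acaca, Me1, Acly and Elovl6 were lower than in water, by 1.52-fold to 2.03-fold, and Srebf1, Scd, Fads1 and Fads2 did not pass the test. At 48 h none of the 9 genes was called lower by its brightest probeset and Scd was called higher. That is 5 of 9 lower and 0 higher at 24 h, where 16.1% of all genes were lower and 12.7% higher. At 48 h it is 0 of 9 lower and 1 higher, where 14.1% of all genes were lower and 11.9% higher (limma). At an unadjusted p under 0.05, 0 were higher at 24 h and 2, Elovl6 and Me1, lower at 48 h. With the probesets of a gene averaged, 3 were called lower at 48 h: Acaca, Elovl6 and Me1. The genes' median log2 change was -0.61 at 24 h and -0.06 at 48 h, against 0.02 and -0.01 over all genes tested. At 48 h 1 gene was called lower with the actin ratio as a covariate, without the 3 arrays of high actin ratio, without 0.5 mM culture 3, or with array weights, and in each of these settings it was Me1.

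Fasn read 5332, 6874, 5532, 7232 and 6763 in the 0.5 mM cultures at 24 h, all below the water range of 10776 to 15185. At 48 h it read 8688.5, 8296.5, 10863, 10625 and 10042 in the 0.5 mM cultures, against a water range of 9853 to 11911. The groups were apart at 24 h and overlapped at 48 h. The log2 change was -1.02 ± 0.12 at 24 h (adjusted p = 2.7e-07) and -0.23 ± 0.12 at 48 h (adjusted p = 0.202).

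Acaca gave 10325.5, 10247, 8781, 10298 and 11755 in the 0.5 mM cultures at 24 h, against 17743 to 20684 in water. At 48 h it gave 12084, 11278, 13003.5, 12848 and 12970.4 in the 0.5 mM cultures, against 11563 to 14156 in water. As for Fasn, the 24 h groups were separate and the 48 h groups were not. The log2 change was -0.91 ± 0.087 at 24 h (adjusted p = 3.93e-09) and -0.08 ± 0.087 at 48 h (adjusted p = 0.56).

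Acly followed the same course, with 23177, 26689.8, 24397.5, 27039.8 and 30382 in the 0.5 mM cultures at 24 h, against 38153 to 45654 in water. At 48 h it had 36749, 30507, 38973, 39018 and 37510.0 in the 0.5 mM cultures, against 32889.6 to 38501 in water. Its log2 change was -0.65 ± 0.11 at 24 h (adjusted p = 4.41e-05) and -0.01 ± 0.11 at 48 h (adjusted p = 0.967).

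Me1 by its brightest probeset read 7844, 7932, 7230.1, 7633 and 9128 in the 0.5 mM cultures at 24 h, against 12373 to 14507 in water, and 10078, 8584, 13772, 10613 and 10446 in the 0.5 mM cultures at 48 h, against 11109 to 13779 in water. Its highest 48 h value at 0.5 mM came from culture 3, 1 of the 3 arrays of high actin ratio. By limma the change was -0.76 ± 0.083 at 24 h (adjusted p = 4.06e-08) and -0.19 ± 0.083 at 48 h (adjusted p = 0.0988). Without the 3 arrays the 48 h value was -0.32 (adjusted p = 0.00331), a call of lower.

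For Elovl6 the lower dose gave the larger measured fall at 24 h. It read 2123, 2440.5, 2652, 2424 and 3952 in the 0.5 mM cultures at 24 h, against 3481 to 4775 in water, and 1 culture of the 5, the fifth, lay inside the water range. At 48 h the 0.5 mM cultures read 3182.5, 2807, 3037, 3153 and 3608.5, against 3435 to 4436 in water. These groups gave a log2 change of -0.61 ± 0.12 at 24 h (adjusted p = 0.000266) and -0.28 ± 0.12 at 48 h (adjusted p = 0.079).

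Scd was the 1 gene called higher at 0.5 mM. It read 67395, 59673, 62456, 68651 and 73493.5 in the 0.5 mM cultures at 24 h, against 55899.7 to 67554 in water, and 65428, 66787, 70859.9, 66542 and 67305 in the 0.5 mM cultures at 48 h, against 50289.7 to 56953 in water. All 5 cultures at 48 h lay above all water cultures, where 6.92% of all genes did so. Its log2 changes were 0.13 ± 0.095 at 24 h (adjusted p = 0.348) and 0.31 ± 0.095 at 48 h (adjusted p = 0.0196). The 48 h call was lost without the 3 arrays of high actin ratio (0.29, adjusted p = 0.078) and without water culture 3 (0.28, adjusted p = 0.0544).

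Srebf1 read 5277.5, 3567, 4686, 5377 and 4313 in the 0.5 mM cultures at 24 h, against 4207 to 5416 in water, and 4152, 4425.5, 4529.7, 4068 and 4620.2 in the 0.5 mM cultures at 48 h, against 3886 to 5069.6 in water. The groups overlapped at both times, with log2 changes of -0.02 ± 0.10 (adjusted p = 0.915) at 24 h and -0.06 ± 0.10 (adjusted p = 0.766) at 48 h. The second Srebf1 probeset gave -0.26 ± 0.13 (adjusted p = 0.156) at 24 h, a call of lower without water culture 1 (-0.37, adjusted p = 0.0437), and 0.01 ± 0.13 (adjusted p = 0.963) at 48 h. Fads2 read 1259.8 to 1851 in the 0.5 mM cultures at 24 h, against 1069.5 to 1719.9 in water, and 1909 to 2367 at 48 h, against 1816 to 2852. Fads1 read 2757 to 3688 in the 0.5 mM cultures at 24 h, against 2593 to 4676 in water, and 4018 to 8181 at 48 h, against 4539.8 to 5480.2. The highest 2 of these 48 h values, 8181 and 6613.5, came from cultures 3 and 4, whose arrays had a high actin ratio. The adjusted p of the 2 desaturases was 0.684 and 0.172 for Fads1 and Fads2 at 24 h, and 0.379 and 0.777 at 48 h.

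**Figure D2:**
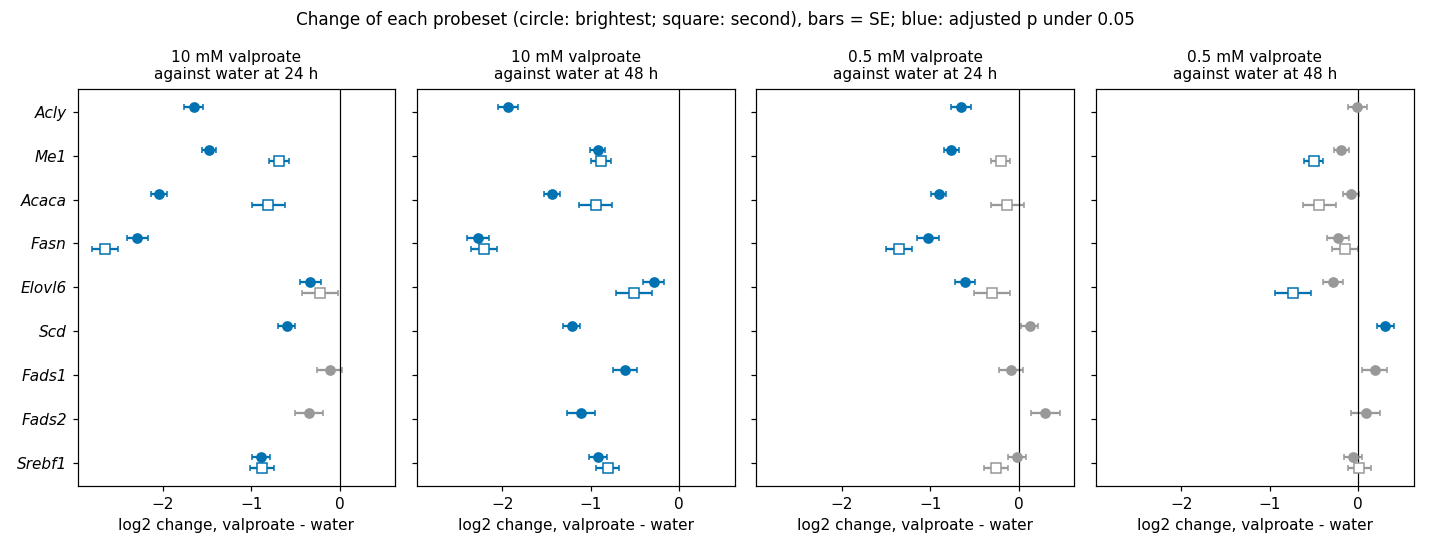
Log2 change (valproate minus water) of each tested probeset of the 9 genes in the 4 comparisons with water; circles are the brightest probeset, open squares the second one, bars are the standard error, and blue marks an adjusted p under 0.05. Fasn, Acaca, Acly, Me1 and Srebf1 are blue in both 10 mM panels, and at 0.5 mM Fasn, Acaca, Acly and Me1 circles are blue at 24 h and grey at 48 h.

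The difference between times was tested as an interaction, the change at 48 h minus the change at 24 h. At 0.5 mM it was positive for Fasn, Acaca, Acly and Me1, that is, the fall against water was smaller at 48 h: 0.82 ± 0.12 for Acaca (adjusted p = 8.41e-05), 0.79 ± 0.17 for Fasn (adjusted p = 0.00243), 0.64 ± 0.15 for Acly (adjusted p = 0.0047) and 0.57 ± 0.12 for Me1 (adjusted p = 0.00139). These 4 of 9 genes were called, where 12.0% of all genes were called in that direction. For Acaca the water cultures themselves moved, with a mean log2 signal of 14.23 at 24 h and 13.68 at 48 h. Its 0.5 mM cultures had 13.32 and 13.60. The actin ratio differed among these groups, with a mean of 1.82 on the log2 scale in the 0.5 mM cultures at 48 h, against 1.23 in water at 48 h, and 1.29 in the 0.5 mM cultures at 24 h, against 1.75 in water at 24 h. With that ratio as a covariate, the interaction stayed past the threshold for Acaca (0.80, adjusted p = 0.00182). It missed it for Fasn (0.69, adjusted p = 0.0554), Acly (0.60, adjusted p = 0.0654) and Me1 (0.35, adjusted p = 0.0938). Without the 3 arrays of high ratio the 4 values were 0.70 for Fasn, 0.79 for Acaca, 0.61 for Acly and 0.43 for Me1, all still called. The second probesets of Acaca (-0.31 ± 0.26) and Me1 (-0.30 ± 0.16) had the opposite sign and were not called. Elovl6 had 0.32 ± 0.16 (adjusted p = 0.172), which became a call without 0.5 mM 24 h culture 5 (0.46, adjusted p = 0.0178).

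At 10 mM the interaction divided the genes. Acaca (0.60 ± 0.12, adjusted p = 0.00107) and Me1 (0.55 ± 0.12, adjusted p = 0.00158) were less far below water at 48 h than at 24 h by their brightest probesets. The second ones gave -0.14 ± 0.26 and -0.20 ± 0.16, not called. For Acaca most of this lay in the water cultures, with a mean log2 signal of 14.23 at 24 h and 13.68 at 48 h. Its 10 mM cultures had 12.19 and 12.25. Scd (-0.61 ± 0.14, adjusted p = 0.00239) and Fads2 (-0.76 ± 0.23, adjusted p = 0.0258) were further below water at 48 h. For Fads2 the mean log2 signal at 10 mM was 9.96 at 24 h and 9.92 at 48 h, against 10.31 and 11.03 in water. For the other genes it was 0.01 ± 0.17 for Fasn, -0.03 ± 0.15 for Srebf1, 0.04 ± 0.16 for Elovl6, -0.28 ± 0.15 for Acly and -0.50 ± 0.20 for Fads1, with adjusted p from 0.108 to 0.974. So 2 of 9 genes were called positive, where 6.63% of all genes were, and 2 of 9 negative, where 6.20% were. The Fads2 call was lost without water 48 h culture 1, 10 mM 24 h culture 3, or 10 mM 48 h cultures 2 or 3 (values of -0.69 to -0.63). Acly became a call without 10 mM 48 h culture 2 (-0.44, adjusted p = 0.00749). Fads1 became a call without water 24 h culture 3 (-0.61, adjusted p = 0.0316), 1 of the 3 arrays of high actin ratio. So it did without all 3 (-0.61, adjusted p = 0.00687) and with the ratio as a covariate (-0.73, adjusted p = 0.000325).

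The 2 doses were also compared directly. At 24 h 7 of the 9 genes were lower at 10 mM than at 0.5 mM, where 26.4% of all genes were, and at 48 h 8 were, where 23.8% were. At 24 h the log2 change between doses was -1.26 ± 0.12 for Fasn, -1.14 ± 0.087 for Acaca, -0.9983 ± 0.11 for Acly, -0.87 ± 0.10 for Srebf1, -0.72 ± 0.095 for Scd, -0.72 ± 0.083 for Me1 and -0.65 ± 0.16 for Fads2. Fads1 had -0.03 ± 0.14 (adjusted p = 0.879) and Elovl6 0.27 ± 0.12 (adjusted p = 0.0522). Without 0.5 mM culture 5, Elovl6 was called higher at 10 mM than at 0.5 mM (0.41, adjusted p = 0.000728), and so it was without 10 mM culture 3 or 4 (adjusted p = 0.0451 and 0.0459) and without the 3 arrays of high actin ratio (adjusted p = 0.0492). At 48 h the same quantity was -2.04 ± 0.12 for Fasn, -1.92 ± 0.11 for Acly, -1.52 ± 0.095 for Scd, -1.36 ± 0.087 for Acaca, -1.19 ± 0.16 for Fads2, -0.86 ± 0.10 for Srebf1, -0.80 ± 0.14 for Fads1 and -0.73 ± 0.083 for Me1, while Elovl6 had -0.01 ± 0.12 (adjusted p = 0.973).

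In water, 3 of the genes were called between the times, Acaca by its brightest probeset only. Fads1 read 4539.8 to 5480.2 at 48 h, against 2593 to 4676 at 24 h, and rose by 0.59 ± 0.14 on the log2 scale (adjusted p = 0.00711). That call was lost on centring on ribosomal protein genes (0.47, adjusted p = 0.099). Fads2 read 1816 to 2852 at 48 h, against 1069.5 to 1719.9 at 24 h, and rose by 0.72 ± 0.16 (adjusted p = 0.00389). Acaca read 11563 to 14156 at 48 h, against 17743 to 20684 at 24 h, and its log2 change was -0.54 ± 0.087 (adjusted p = 9.89e-05). The second Acaca probeset gave 0.07 ± 0.19 (adjusted p = 0.872) and the mean of both probesets -0.24 (adjusted p = 0.122). These are 2 of 9 genes higher, where 5.11% of all genes were, and 1 of 9 lower, where 4.96% were. The 10 mM cultures of Fads1 (2949.5 to 3970.4 at 48 h, against 2876 to 3385 at 24 h) and of Fads2 (757 to 1252 at 48 h, against 721.5 to 1427 at 24 h) covered much the same range at both times.

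Genes with a second probeset did not always give the same account. The second Fasn probeset had log2 changes of -2.65 ± 0.15 and -2.20 ± 0.15 at 10 mM (24 h and 48 h), -1.36 ± 0.15 at 0.5 mM and 24 h, and an interaction of 1.20 ± 0.21 at 0.5 mM (adjusted p = 0.000358), with the same calls as the first. The second Srebf1 probeset had -0.88 ± 0.13 and -0.81 ± 0.13 at 10 mM, also with the same calls. At 10 mM both probesets of these 2 genes gave the same calls.

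The probesets of Acaca, Me1 and Elovl6 did not give the same calls. The dimmer Acaca probeset read 331 to 486 in the 10 mM cultures at 24 h, against 575 to 831.5 in water, and its log2 change at 10 mM was -0.81 ± 0.19 at 24 h and -0.94 ± 0.19 at 48 h. At 0.5 mM it gave -0.13 ± 0.19 at 24 h (adjusted p = 0.648) and -0.44 ± 0.19 at 48 h (adjusted p = 0.0907). That 48 h value was -0.58 and called without 0.5 mM culture 2 (adjusted p = 0.0194), -0.18 without culture 3, and -0.17 without the 3 arrays of high actin ratio, the last 2 not called. The second Me1 probeset had -0.68 ± 0.11 at 24 h and -0.88 ± 0.11 at 48 h at 10 mM, both called. At 0.5 mM it gave -0.20 ± 0.11 at 24 h (adjusted p = 0.179) and -0.50 ± 0.11 at 48 h (adjusted p = 0.00104, a call). Without the 3 arrays of high actin ratio it was called lower at both times, with -0.33 at 24 h (adjusted p = 0.00158) and -0.36 at 48 h (adjusted p = 0.00187). Leaving out water culture 3 alone also gave a call at 24 h (adjusted p = 0.0143). With the ratio as a covariate the 2 values were -0.38 and -0.28, both called, so which time had the larger fall turned with this setting. The 48 h call was lost on centring on ribosomal protein genes (-0.29, adjusted p = 0.0889). At 10 mM the second Elovl6 probeset gave -0.23 ± 0.20 at 24 h (adjusted p = 0.378), where the brightest was called, and -0.51 ± 0.20 at 48 h (adjusted p = 0.04, a call). The 24 h value became a call without 10 mM culture 1 (-0.45, adjusted p = 0.0404), and the 48 h call was lost on leaving out any 1 of water cultures 1, 3 and 5 or 10 mM cultures 1, 2 and 4 (values of -0.53 to -0.38). At 0.5 mM it gave -0.31 ± 0.20 at 24 h (adjusted p = 0.275) and -0.74 ± 0.20 at 48 h (adjusted p = 0.00731, a call), the last not called on centring on ribosomal protein genes (adjusted p = 0.0712). When the probesets of a gene were averaged, the interactions of Acaca and Me1 were no longer called at either dose, and Acaca, Me1 and Elovl6 were called lower at 0.5 mM and 48 h. Of the time pattern at 0.5 mM, that of Fasn was given by both of its probesets, and Acly has 1 probeset.

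The regulators around Srebf1 were read from a list of 16 genes, 15 of them tested. At 10 mM 8 fell and 2 rose at 24 h, and 7 fell and 3 rose at 48 h, with a median log2 change of -0.35 and -0.17. Over all genes tested, 25.0% fell and 31.1% rose at 24 h and 22.3% fell and 27.6% rose at 48 h, with medians of 0.07 and 0.03. Mid1ip1 and Thrsp, partners that raise carboxylase polymerisation or lipogenic output, fell with log2 changes of -2.16 and -1.54 at 24 h and of -1.65 and -1.88 at 48 h. Nr1h3, LXR alpha, which activates Srebf1 transcription, had log2 changes of -3.10 at 24 h and -1.99 at 48 h at 10 mM, and -0.04 and 0.14 at 0.5 mM, not called. Mlxipl, the glucose-responsive factor ChREBP, fell with log2 changes of -0.97 and -0.68.

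Of the genes that process SREBP, Mbtps1, the site-1 protease, fell with log2 changes of -0.90 at 24 h and -0.50 at 48 h at 10 mM. Insig2, which holds SREBP in the endoplasmic reticulum, fell with log2 changes of -0.70 and -0.75. Insig1, its partner and itself an SREBP target, was called lower at 48 h (-0.42) and not at 24 h (-0.12). Srebf2, which drives cholesterol synthesis genes, fell with a log2 change of -0.77 at 24 h and had -0.17 at 48 h, not called. Scap, the SREBP escort, had 0.06 and 0.36, not called. At 0.5 mM and 24 h Mid1ip1 (-0.65), Mlxipl (-0.52) and Srebf2 (-0.43) fell while Thrsp rose by 0.55. Thrsp was higher at the low dose and lower at the high dose.

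Most genes that supply acetyl-CoA and NADPH also fell at 10 mM. Of 18 tested, 12 fell and 2 rose at 24 h, and 11 fell and 2 rose at 48 h, with medians of -0.47 and -0.60, against medians of 0.07 and 0.03 and shares of 25.0% and 22.3% lower and 31.1% and 27.6% higher over all genes. Pklr, liver pyruvate kinase, fell with log2 changes of -1.77 at 24 h and -1.97 at 48 h, Slc25a1, the mitochondrial citrate carrier, with -1.35 and -1.43, and Pgls of the pentose phosphate path with -1.55 and -1.76. Pdha1, of pyruvate dehydrogenase, fell with log2 changes of -1.24 and -0.85. The mitochondrial malic enzymes went opposite ways: Me3 fell with log2 changes of -0.90 and -1.16 and Me2 rose by 1.18 and 0.72. At 0.5 mM and 24 h Acss2, cytosolic acetyl-CoA synthetase, fell with a log2 change of -1.06 and Pklr with -0.92. At 48 h both were again lower, at -0.32 for Acss2 and -0.49 for Pklr.

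The other elongases and desaturases were called in both directions. Of 15 tested, 6 rose and 7 fell at 10 mM and 24 h, and 5 rose and 5 fell at 48 h, where 31.1% and 27.6% of all genes rose and 25.0% and 22.3% fell. Elovl2 and Elovl5, which lengthen polyunsaturated chains, rose by 1.20 and 1.17 at 24 h and by 1.61 and 1.20 at 48 h. Scd2, a second stearoyl-CoA desaturase, rose by 0.78 and 0.61 at 10 mM and fell with a log2 change of -0.75 at 0.5 mM and 24 h, while Scd fell at 10 mM. Fads3 rose by 0.62 at 10 mM and 24 h and fell at 0.5 mM, with log2 changes of -1.01 at 24 h and -0.53 at 48 h. Cyb5r4, a cytochrome b5 reductase, fell with log2 changes of -0.81 and -0.27, and Hacd1, a dehydratase of elongation, with -0.66 and -0.24. Scd and Scd2 are close relatives, and cross-hybridisation between their probesets was not tested.

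Genes around malonyl-CoA use were also called in both directions. At 10 mM 3 of 13 tested rose and 5 fell at 24 h, and 5 rose and 3 fell at 48 h, where 31.1% and 27.6% of all genes rose and 25.0% and 22.3% fell. Cpt1a and Cpt1b, the malonyl-CoA-sensitive carnitine palmitoyltransferases that admit fatty acids to mitochondria, rose by 0.72 and 0.47 at 24 h and by 0.89 and 1.16 at 48 h. Prkaa2 and Prkag2, subunits of AMP-activated protein kinase, fell with log2 changes of -0.9993 and -1.003 at 24 h and of -0.82 and -0.66 at 48 h. They were named for the size of their change, at mean log2 signals of 10.5 and 9.39. Other subunits in the list, among them the brighter Prkaa1 (13.4) and Prkag1 (12.1), are not reported singly. Hlcs, which attaches biotin to the carboxylases, fell with a log2 change of -0.73 at 24 h and had -0.15 at 48 h, not called. Fbxw7, a ubiquitin ligase subunit that turns over SREBP, rose by 0.65 at 48 h and had 0.29 at 24 h, not called. In mitochondrial fatty acid synthesis, a separate bacterial-type route, 5 of 9 fell and 2 rose at 24 h, and 4 fell and 2 rose at 48 h, against the same shares over all genes. Mecr rose by 0.82 and 0.58, and Oxsm fell with log2 changes of -0.79 and -0.67. At 0.5 mM and 24 h, where 16.1% of all genes were called lower and 12.7% higher, the calls were 5 lower and 1 higher of 15 regulators, 6 and 2 of 18 supply genes, 5 and 3 of 15 elongation and desaturation genes, 5 and 1 of 13 around malonyl-CoA, and 0 and 3 of 9 mitochondrial ones.

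**Figure D3:**
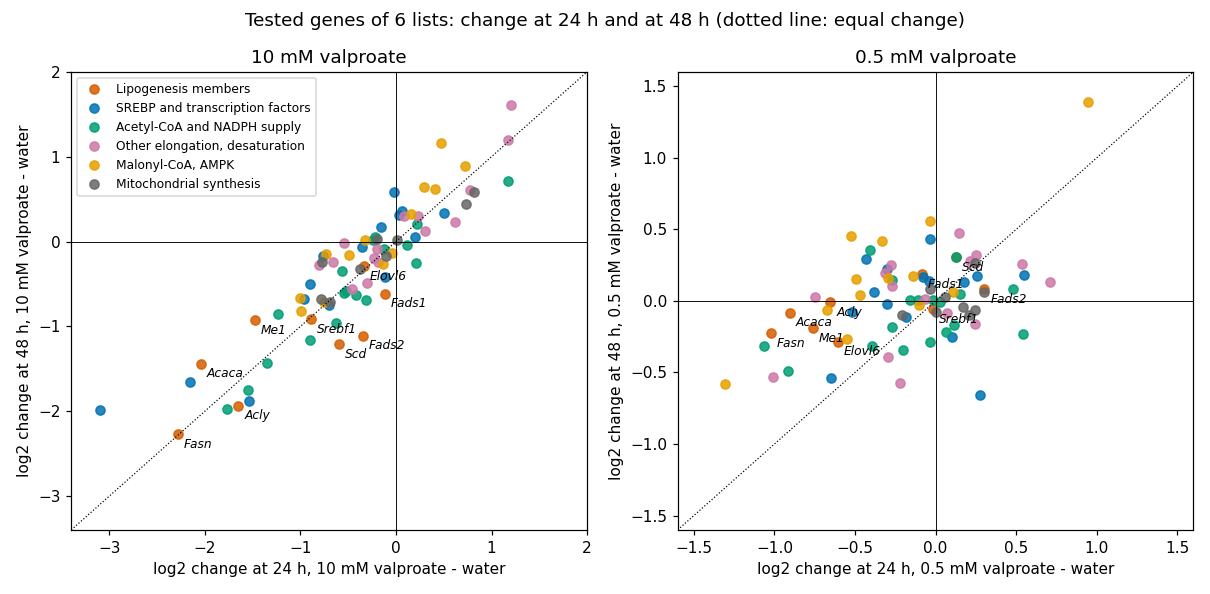
Log2 change at 24 h (x axis) and 48 h (y axis) for the tested genes of 6 lists at 10 mM (left) and 0.5 mM (right) against water; each point is a gene by its brightest probeset and the dotted line marks equal change. At 10 mM the lipogenesis genes lie in the lower left, with Fasn at -2.29 and -2.27, and at 0.5 mM Fasn, Acaca, Acly and Me1 lie left of 0 near the line of no change at 48 h.

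Of the 10 genes themselves, Acly (Pearson r 0.983) and Acaca (0.971) had log2 signals close to those of Fasn over the 30 cultures. Outside the 10 genes, the most like Fasn were Abcc2, the canalicular organic anion pump (Pearson r 0.979), Tgfbi (0.974), Tkfc, a fructose-handling kinase (0.972), Myadm (0.971), Rragc (0.971) and Ifit2 (0.970), of 11463 candidates. Those most like Srebf1 were Abhd14b (0.940), Trim14 (0.939), Clcf1 (0.936), Hoga1 (0.935), Gstm4 (0.934) and Bloc1s1 (0.932). The 30 points fall into 6 groups and share the fall at 10 mM, so these values describe a common dose pattern.

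Marker genes of other cell types were also read. At 10 mM 25.0% of all genes were called lower and 31.1% higher at 24 h, and 22.3% and 27.6% at 48 h. The summed signal of 9 Kupffer cell and macrophage markers was 11916 to 13515 in the 10 mM cultures at 24 h, against 27929 to 31972 in water, and 9753 to 14921 at 48 h, against 24262 to 27065. Of these, 7 were tested and 5 fell at each time, among them Cd14 (-2.06 and -1.97), while Adgre1 (3.38 to 106) and Cd163 (8.24 to 359) did not pass the filter. By median signal over all arrays, Cd14 (16901) and Lyz2 (6858) made up most of this sum, and Cd68 was next at 815. At 24 h 4 of the 7 tested had every 10 mM culture below every water culture, and 1 had every one above, not called. The 9 stellate cell and fibroblast markers summed to 2862 to 3285 in the 10 mM cultures at 24 h, against 3749 to 4332 in water, and to 2873 to 3567 at 48 h, against 3928 to 4560.1, and 2 of 6 tested fell at each time. The 5 adipocyte markers summed to 3256 to 4826 in the 10 mM cultures at 24 h, against 7671 to 9946 in water, and to 3520.3 to 5347 at 48 h, against 8843 to 9483. Of 3 tested, Cidec and Fabp4 fell at both times and Plin1 was not called at either, while Adipoq (11.3 to 362) and Lep (11.9 to 157) did not pass the filter. Cidec (median signal 6391) made up most of the adipocyte sum, and Fabp4 was next at 675. The 5 biliary markers summed to 6381 to 7275 in the 10 mM cultures at 24 h, against 7197 to 8742.5 in water, and to 4967 to 6585 at 48 h, against 10578.5 to 12264. Of 2 tested, Epcam fell at both times and Cftr was not called at either. Krt7 (8.2 to 42.6), Krt19 (15.4 to 366) and Spp1 (19.2 to 310) did not pass the filter. Epcam (median signal 8491) made up most of the biliary sum, and Krt19 was next at 159. The 6 endothelial markers summed to 962 to 1395 in the 10 mM cultures at 24 h, against 1248 to 2140.5 in water, and to 986 to 1581 at 48 h, against 1139 to 1620.3. Of 4 tested, Lyve1 fell at 24 h and 0 fell at 48 h. The stellate and endothelial counts lie near the shares over all genes. The hepatocyte markers summed to 390709 to 471572 in the 10 mM cultures at 24 h, against 476730.0 to 593287 in water, with 7 of 9 called lower, and to 427432 to 478536 at 48 h, against 455841 to 524400.0, with 3 lower and 2 higher. At 0.5 mM and 24 h, where Fasn, Acaca, Acly and Me1 were lower, 0 of 7 Kupffer cell markers tested were called lower (limma). Of all genes, 16.1% were called lower there. The 9 Kupffer cell markers, by signal mostly Cd14 and Lyz2, summed to 33425 to 35725, against 27929 to 31972 in water. The part of these shifts in the fall of the lipogenic genes was not tested.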

How the data were processed

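Total RNA of 30 wells was labelled with biotin and read on 1 rat expression array each. Per the submitters' processing notes, the deposited intensity values were made with MAS5, with no version named; the authors' table is on a linear scale with all arrays at the same trimmed mean. Of 31099 probesets, 57 controls were left out. Gene names came from the platform annotation: 20826 probesets had 1 symbol, 436 several and 9780 none, and 20758 of those with 1 were matched to the RefSeq gene table (GRCr8).

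From there, 16 was added to each signal before log2, which understates the change of dim probesets, and probesets with a mean below the 30th percentile (7.39 on the log2 scale) were left out, which left 21729. All 6 groups entered 1 limma model (limma 3.58.1, R 4.3.3, trended eBayes, 24 residual degrees of freedom). P-values are two-sided; each comparison was adjusted by the Benjamini-Hochberg method across its 21729 tested probesets and called at 0.05. The brightest probeset stands for a gene. The named genes are the 10 members, up to 6 called genes with the largest change at 10 mM per list, and a fixed set of regulators and enzymes. The members, lists and tests were chosen with earlier results of these data known. Alternatives covered normalization, filter, pseudocount, variance model, weights, samples in the fit, probeset averaging, array running number, RNA quality, a fold minimum and each culture left out. The method was tested on simulated data for 10 mM against water at 24 h. It called 16 of 68 changes of 0.5 on the log2 scale, 48 of 66 of 1 and 64 of 66 of 2, with 5 false calls. Small changes can thus go uncalled. The simulation changed far fewer probesets than were called in the data, drawn from all signal levels kept by the filter. Its rates need not hold for the genes reported here. Promoters were searched with Python 3.11.15.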

Additional observations from a re-analysis of the deposited data

Results flagged for a closer look

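Single cultures stood apart from the other 4 of their group in 5 of the 90 groups of values tested. Chance gives about 1 in 20 for independent tests. The probesets were read on the same cultures, so these tests were not independent. The count therefore cannot show whether the deviations were chance. Whether a culture deviated in many probesets at once was not tested. Acly read 14852 in culture 2 of the 10 mM group at 48 h, where the others read 7977 to 9299.5, 30507 in culture 2 of the 0.5 mM group at 48 h, where the others read 36749 to 39018, and 32889.6 in culture 3 of the 48 h water group, where the others read 36922 to 38501. Fasn read 9853 in culture 1 of the 48 h water group, where the others read 11329 to 11911. Fads2 read 2852 in culture 1 of the same group, where the others read 1816 to 2013.

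The change against water differed between 24 h and 48 h, by a test of the interaction, in 9 calls, with a probeset called at both doses counted at each. Of all genes, 6.63% were called positive and 6.20% negative at 10 mM, and 12.0% positive at 0.5 mM. At 10 mM the interaction was 0.60 for Acaca, 0.55 for Me1, -0.61 for Scd and -0.76 for Fads2. At 0.5 mM it was 0.79 and 1.20 for the Fasn probesets, 0.82 for Acaca, 0.64 for Acly and 0.57 for Me1. The second probesets of Acaca and Me1 did not give these calls at either dose.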

How the results depend on the processing

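Over 3259 values of single probesets under the alternatives, 3124 stayed on their side of the threshold, 101 lost a call and 34 gained one. No called value changed sign, and 78 values that were not called under either setting did. A fold minimum of 2, by its construction, accounted for 55 of the 101. For 10 mM against water, with Elovl6 and the fold minimum set aside, 542 of 544 values stayed on their side of the threshold and 2 gained a call. For Elovl6, centring on ribosomal protein genes gave -0.29 at 24 h (adjusted p = 0.0877) and -0.16 at 48 h (adjusted p = 0.41), and the probeset mean gave -0.28 at 24 h (adjusted p = 0.0578); the cause was not tested.

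As reported, the counts of genes called were 6507 and 5783 for 10 mM against water (24 h and 48 h), 3344 and 3016 for 0.5 mM, 1489 and 2516 for the interactions at 10 mM and 0.5 mM, 6886 and 6240 for 10 mM against 0.5 mM and 1169 for 48 h against 24 h in water. Testing against a fold minimum of 2 gave, by construction, fewer: 678, 415, 4, 12, 5, 0, 768, 605 and 8. Of the 9 lipogenic genes, it then called 4 and 3 lower for 10 mM against water, 4 lower for 10 mM against 0.5 mM at 48 h, and 0 in the other comparisons. Centring on ribosomal protein genes gave 984 interactions at 10 mM, with 1 lipogenic gene lower, and 1 higher each for 10 mM against 0.5 mM at 24 h and for time in water. Fitting only the compared groups gave 759 for time in water. Averaging probesets called 3 lipogenic genes lower at 0.5 mM and 48 h, 0 and 2 positive interactions at 10 mM and 0.5 mM, and 0 lower over time in water. With the actin ratio as covariate, 387 genes and 1 lipogenic gene had an interaction at 0.5 mM, and without the 3 arrays of high ratio 891 genes did; both called 1 lipogenic gene lower and 0 higher at 0.5 mM and 48 h. Array weights also called 1 lower there. Both actin settings, array weights and the filter at the 50th percentile called 1 gene, Elovl6, higher at 10 mM than at 0.5 mM at 24 h.

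Leaving out 1 culture at a time gave 0 to 1 lower and 0 to 1 higher at 0.5 mM and 48 h, 1 to 3 negative interactions at 10 mM, and 0 to 1 higher for 10 mM against 0.5 mM at 24 h. Fads1 gained a negative interaction at 10 mM with array weights (-0.56), only the compared groups (-0.50) and the actin covariate (-0.73). It also gained one without the 3 arrays of high actin ratio (-0.61).

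Centring on ribosomal protein genes moved the median log2 change of all genes to 0.17 at 10 mM and 48 h (0.03 as scaled), to 0.20 at 0.5 mM and 48 h (-0.01 as scaled), and to 0.24 for the interaction at 0.5 mM (-0.04 as scaled). Of called genes, the share lower was 44.6% and 30.7% (as scaled and after this centring) at 10 mM and 48 h, 56.0% and 70.8% at 0.5 mM and 24 h, 54.1% and 13.6% at 0.5 mM and 48 h, 48.4% and 25.9% for the interaction at 10 mM, 44.7% and 3.73% for that at 0.5 mM, and 49.3% and 85.8% over time in water. The labels pair no cultures, but the running number of the arrays falls into 5 runs of 6 with 1 array of each group. Deviations from the group means correlated above 0.1 in 1 of 75 same-run pairs (median 0.00298). Of 30 arrays, 11 correlated best with their own run, more than the 1 in 5 that random order over 5 runs would give. With the run as a replicate block, no value changed its call and no count moved by over 1.5 times: 6522 genes were called for 10 mM against water at 24 h and 3063 for 0.5 mM at 48 h. Dim probesets, Acacb above all, cannot be read at this signal level.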
